A study of Apis mellifera with 24 samples.

Results

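The miRNAs of mated queens that were laying eggs were compared with those of mated queens kept from laying. All queens were sisters of *Apis mellifera ligustica*, the honey bee, reared from 1 source colony and inseminated by instrument with semen of the same source and quantity, and each small RNA library came from the ovaries of 1 queen. The 6 laying libraries came from 3 egg-laying recovery queens, which had been caged for 7 days and then freed, and which had laid again when sampled on day 8, and from 3 egg-laying queens, which were never caged. The 3 caged libraries came from egg-laying inhibited queens, which were sampled after 7 days in a small cage inside their own hive. These are 9 of the 12 miRNA libraries among the 24 libraries of the series, and the 3 virgin libraries were left out. The table lists 178 miRNAs, and the 91 with at least 10 counts in at least 3 of the 9 libraries were compared. They held 99.95 to 99.97% of the counts of each library.

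The design sets limits on what a difference can be tied to. Recovery and inhibited queens had both been caged, whereas egg-laying queens had not. Each queen was dissected when her own treatment ended, so egg-laying queens and the caged groups may differ in age and in time since the first egg, and laying status, caging history and age cannot be told apart in the comparison of egg-laying and inhibited queens. The reads came from whole ovaries, and fewer cells of a type cannot be told apart from less miRNA per cell. The p-values measure the spread between sister queens of 1 source colony.

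A miRNA is a short RNA that guides a silencing complex to messenger RNAs carrying a match to its seed, the bases near its 5′ end, and so lowers their translation or stability. In insect ovaries miRNAs act in the germline, which makes the eggs, and in the follicle cells around them. Several are linked to ecdysone and juvenile hormone, the hormones that govern egg production.

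The oligonucleotides below were designed by the study to measure miRNAs by PCR, and they are shown for the members of the groups described further on for which such an oligonucleotide was given. Capitals mark bases 2 to 8, which is the seed where the oligonucleotide starts at the first base of the miRNA.
miR-100: aACCCGTAgatccgaacttgtg
miR-263a: gTAAATGGcactggaagaattcac
miR-279c: tGACTAGAgtcacactcgtcca
miR-3791: tCACCGGGtaggattcatcca
No pair of the 4 shares bases 2 to 8. The sequences of the other miRNAs, miR-3759 and miR-3049-5p among them, were not used here.

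Library totals were 304354, 267835 and 430457 counts in recovery queens, 198712, 128749 and 347725 in egg-laying queens, and 190236, 215816 and 279188 in inhibited queens. The means of laying and inhibited queens differed by 51225 counts, which was within the spread (exact permutation test over 84 splits, two-sided p = 0.5). The smallest p that this test can reach is that of the observed split alone among the 84. Levels are given below as normalized CPM, the counts on a common library size after scaling with the TMM factors of edgeR, which ranged from 0.902 to 1.14. Replicate libraries differed by more than sampling noise (chi-square per degree of freedom 11.7 to 53.9), and their Spearman correlation over miRNAs was 0.988 to 0.993. The muscle miRNAs miR-1 and miR-133 together held 1602 to 2331 normalized CPM in recovery queens, 1786 to 2748 in egg-laying queens and 1722 to 2368 in inhibited queens. Most of this was miR-1. The scarce miR-133 had 58.8, 40.9 and 49.0 in recovery queens, 104, 104 and 70.5 in egg-laying queens, and 75.8, 74.2 and 111 in inhibited queens. Its log2 change of recovery minus inhibited queens was −0.82 (edgeR, adjusted p = 0.253). The neuronal miR-124 had 0 to 3 counts in each library. As to the Drosophila ovary, its known miRNAs were present in all libraries, namely miR-184, which acts in the female germline, miR-989, which acts in the migration of border cells, and miR-318, which is expressed in follicle cells.

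Few miRNAs differed between laying and caged queens. Of 91 miRNAs, 2 passed an adjusted p of 0.05 (2.20%, edgeR quasi-likelihood test with Benjamini-Hochberg adjustment), and both, miR-3759 and miR-3049-5p, were lower in laying queens. Without adjustment 18 miRNAs (19.8%) had a p under 0.05, of which 9 were higher (9.89%) and 9 lower (9.89%). The levels of 7 miRNAs (7.69%) did not overlap between the 6 laying and the 3 inhibited queens, 3 of them higher (3.30%), namely miR-100, miR-6000a-5p and miR-6000b, and 4 lower (4.40%), namely miR-3759, miR-12, miR-996 and miR-927a. As miR-6000a-5p and miR-6000b hold the same reads in effect, these are 6 distinct changes, 2 of them higher and 4 lower. Most changes were small. The median log2 change, laying minus caged, was −0.02, 85 miRNAs changed by less than 0.5 in size, and 4 by more than 1. Among these 4, miR-6000a-3p and miR-2765-5p met the count minimum only with the group in which they were higher.

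**Figure D1:**
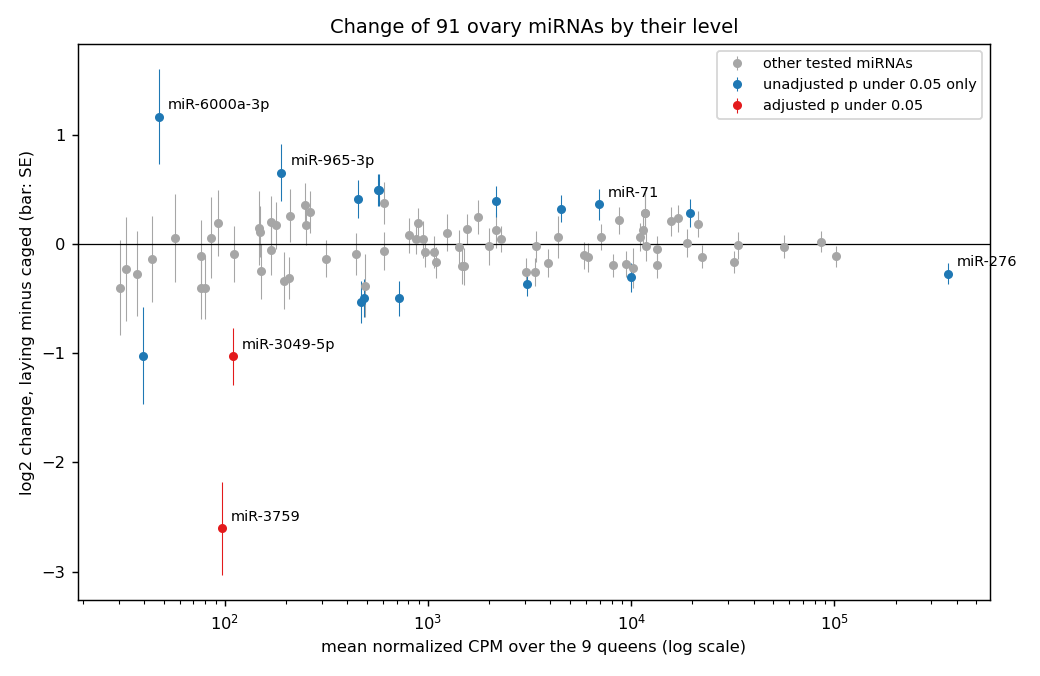
Log2 change of each of the 91 miRNAs, laying minus inhibited queens, with its standard error (y axis) against its mean normalized CPM over the 9 queens (x axis, log scale). miR-3759 and miR-3049-5p, in red, are the 2 miRNAs that passed an adjusted p of 0.05, both are among the less abundant miRNAs, and most others lie within 0.5 of 0.

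Precision followed the depth. The median standard error of the log2 change was 0.26 for the 29 miRNAs with fewer than 100 counts per library on average, 0.16 for the 31 with 100 to 1000 counts, and 0.12 for the 31 with 1000 or more. A change of the median size, 0.19, was therefore close to its own error.

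The largest change was that of miR-3759, a miRNA with a number of the series described from bees, for which no role is given here. Its normalized CPM was 10.4, 22.3 and 36.7 in recovery queens and 14.2, 142 and 25.2 in egg-laying queens, against 222, 148 and 250 in inhibited queens. All 6 laying queens lay below all 3 inhibited queens, and egg-laying queen 2 came close to the lowest inhibited queen. The counts behind these levels were low, from 3 to 19 in laying queens and from 32 to 63 in inhibited queens. The log2 change was −2.60 (SE 0.43, adjusted p = 0.00102), a level in laying queens of 0.165 of that in inhibited queens. It stayed past the threshold in 21 of 21 alternatives that tested it, with log2 changes between −3.13 and −2.34, and it was not tested where at least 100 counts were required. Without egg-laying queen 2 the log2 change was −3.13.

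Both laying groups were lower in miR-3759 when each was set against the same 3 inhibited queens. The log2 change was −3.06 in recovery queens (SE 0.53, adjusted p = 0.00194) and −2.15 in egg-laying queens (SE 0.52, adjusted p = 0.0293). The call of recovery queens held in 21 of 21 alternatives and that of egg-laying queens in 13 of 21. The call of egg-laying queens was lost without egg-laying queen 1 or 3, recovery queen 2, or inhibited queen 1 or 3 (adjusted p 0.0708 to 0.129). In egg-laying queens the log2 change was −3.22 without egg-laying queen 2 (adjusted p = 3.7e-05), and over the 21 alternatives it lay between −3.22 and −1.63. The difference between recovery and egg-laying queens was −0.91 (SE 0.67, adjusted p = 0.51), and their levels overlapped.

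The other miRNA that passed the test was miR-3049-5p, for which no function is given here. Recovery queens had 48.4, 70.6 and 75.9 normalized CPM and egg-laying queens 85.5, 112 and 101, against 184, 102 and 207 in inhibited queens. The recovery queens lay below all inhibited queens, but egg-laying queen 2 lay above inhibited queen 2, so the laying and caged groups overlapped. The log2 change, laying minus caged, was −1.03 (SE 0.26, adjusted p = 0.0463), and it passed the threshold in only 4 of 21 alternatives, with adjusted p between 0.00696 and 0.237. Leaving out any library other than inhibited queen 2 ended the call, with adjusted p from 0.0547, without egg-laying queen 3, to 0.237, without inhibited queen 3 (log2 change −0.81). Without inhibited queen 2 the log2 change was −1.23 (adjusted p = 0.00696). Against inhibited queens, the log2 change was −1.32 in recovery queens (SE 0.31, adjusted p = 0.0186) and −0.74 in egg-laying queens (SE 0.31, adjusted p = 0.154). The call of recovery queens was lost without recovery queen 1 or 2 or without inhibited queen 1 or 3 (adjusted p 0.0534 to 0.142).

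The miRNAs of lowest p among those higher in laying queens came from the miR-6000 locus, whose role is not given here. Its genes miR-6000a and miR-6000b overlap in the RefSeq annotation, and the counts of miR-6000a-5p and miR-6000b were equal in 6 of 9 libraries and differed by at most 2 counts in the others, so they represent in effect the same reads and are reported as 1 observation. For miR-6000a-5p the levels were 789, 654 and 698 normalized CPM in recovery queens and 579, 499 and 576 in egg-laying queens, against 466, 459 and 421 in inhibited queens. All laying queens lay above all inhibited queens, and all recovery queens above all egg-laying queens. The log2 change of laying minus caged was 0.49 (SE 0.15, adjusted p = 0.0922) and did not pass the threshold. It passed in 2 of 22 alternatives, with library size as the only scaling and with TPM in limma.

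In recovery queens alone, miR-6000a-5p rose by 0.67 on the log2 scale against inhibited queens (SE 0.17, adjusted p = 0.0186), a call that held in 17 of 22 alternatives. It was lost without recovery queen 1 or without any 1 of the inhibited queens (adjusted p 0.053 to 0.142), and in the fit of all 12 libraries (adjusted p = 0.486). Egg-laying queens differed from inhibited queens by 0.31 (SE 0.17, adjusted p = 0.268). The difference between recovery and egg-laying queens, 0.36 (SE 0.16), had an adjusted p of 0.299 and was thus not shown. The opposite arm of the same hairpin, miR-6000a-3p, was scarce, with 48.4, 66.9 and 90.6 normalized CPM in recovery queens and 33.2, 44.7 and 62.9 in egg-laying queens, against 21.7, 41.7 and 15.9 in inhibited queens. Its log2 change, 1.16 (SE 0.43, adjusted p = 0.127), did not pass. The counts of inhibited queens were 4, 9 and 4, so it met the minimum of 10 counts through laying queens alone. A rise was thereby favoured, and its direction is no support for that of miR-6000a-5p. The neighbouring miR-6040 had a log2 change of 0.29 (SE 0.15, adjusted p = 0.306).

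**Figure D2:**
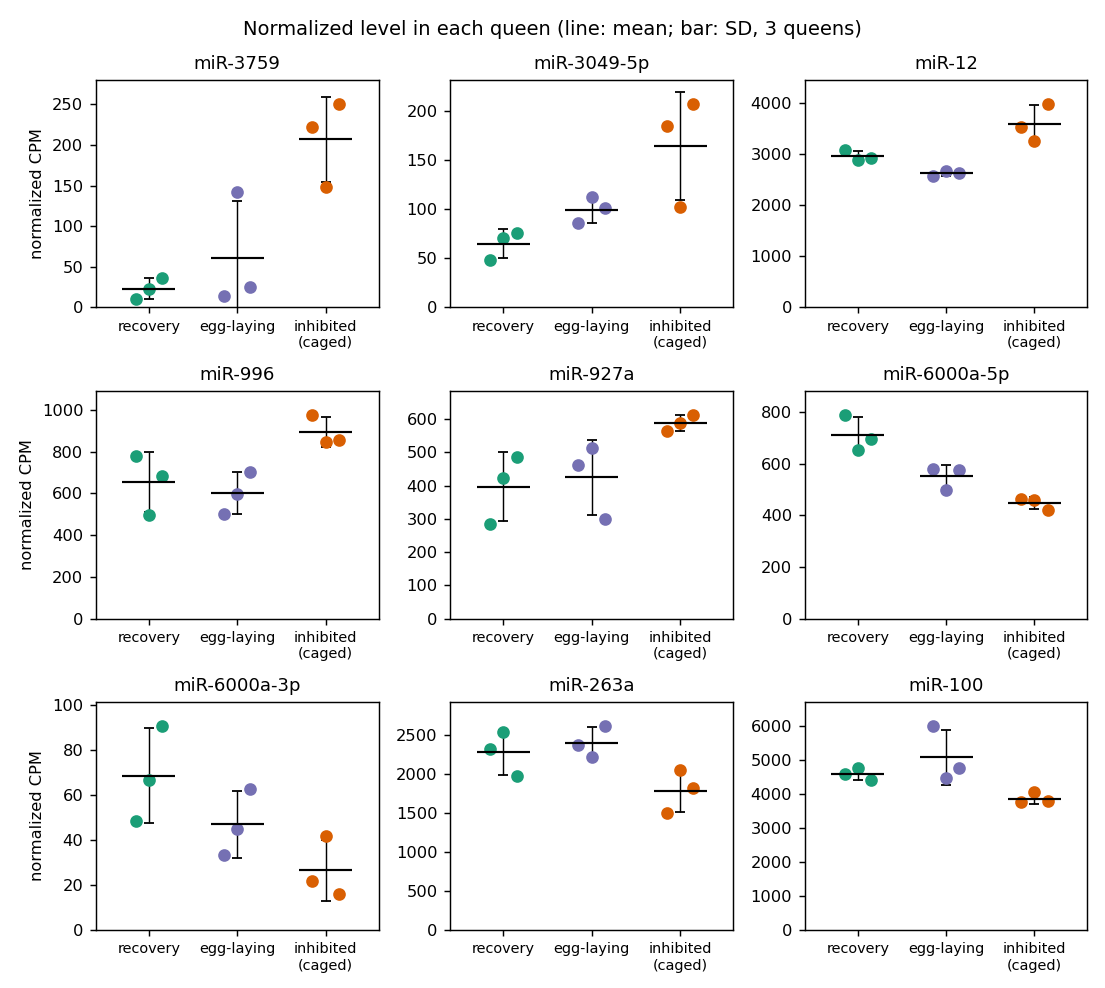
Normalized CPM (y axis, from 0) of 9 miRNAs in each of 9 queens, in recovery, egg-laying and inhibited (caged) queens, with the mean (line) and SD (bar) of the 3 queens of a group. Inhibited queens lie above all laying queens for miR-3759, miR-12, miR-996 and miR-927a and below them for miR-6000a-5p and miR-100, and for the others the groups overlap.

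A group of miRNAs of moderate abundance was lower in laying queens by smaller amounts, and none of these passed the adjusted threshold. miR-12 had 3089, 2882 and 2928 normalized CPM in recovery queens and 2574, 2676 and 2642 in egg-laying queens, against 3541, 3261 and 3984 in inhibited queens. All laying queens were below the caged ones, with a log2 change of −0.36 (SE 0.12, adjusted p = 0.0997). miR-996 belongs to the miR-279 family, which in Drosophila acts in the nervous system and in the signalling of border cells in the ovary. It had 778, 498 and 685 in recovery queens and 503, 596 and 705 in egg-laying queens, against 974, 844 and 858 in inhibited queens. No laying queen reached the lowest inhibited queen, and the log2 change was −0.50 (SE 0.16, adjusted p = 0.0997). miR-927a, whose Drosophila counterpart targets Kr-h1, a gene of the juvenile hormone response, had 284, 423 and 485 in recovery queens and 461, 514 and 299 in egg-laying queens, against 563, 589 and 612 in inhibited queens. The 3 inhibited queens were close together and above all laying queens (log2 change −0.53, SE 0.19, adjusted p = 0.118). Over 22 alternatives none of these 3 miRNAs passed the threshold and none turned its direction.

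miR-993, which lies in the Hox gene cluster in insects, had 470, 427 and 355 normalized CPM in recovery queens and 413, 492 and 398 in egg-laying queens, against 439, 742 and 600 in inhibited queens. Inhibited queen 1 fell among the laying queens, and the log2 change was −0.49 (SE 0.18, adjusted p = 0.118). Without inhibited queen 2 it was −0.26 (adjusted p = 0.556). miR-10 of the same cluster had a log2 change of 0.28 (SE 0.13, adjusted p = 0.214), and miR-iab-4, with 7 to 11 counts in each library, one of −0.27 (adjusted p = 0.744). The members of the Hox cluster thus did not share a direction.

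Among miRNAs higher in laying queens, miR-100 was the most abundant whose groups did not overlap. It had 4608, 4777 and 4429 normalized CPM in recovery queens and 6003, 4465 and 4786 in egg-laying queens, against 3757, 4068 and 3790 in inhibited queens. All laying queens lay above the caged ones (log2 change 0.32, SE 0.12, adjusted p = 0.142). miR-100, let-7 and miR-125 are made from neighbouring genes that respond to ecdysone in Drosophila and time the change from juvenile to adult. For miR-125 the levels were 474, 446 and 455 in recovery queens and 641, 522 and 420 in egg-laying queens, against 319, 353 and 429 in inhibited queens, so that 1 egg-laying queen was below the highest inhibited queen (log2 change 0.41, SE 0.17, adjusted p = 0.19). let-7 averaged 883 ± 95.6 in laying and 859 ± 42.3 in inhibited queens (SD, n = 6 and 3), with a log2 change of 0.04 (SE 0.13, adjusted p = 0.878). None of the 3 passed the test, and their median was 0.32 beside −0.02 for all 91 miRNAs.

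miR-263a, which protects sensory bristle cells from death in Drosophila, had 2325, 2544 and 1971 normalized CPM in recovery queens and 2374, 2214 and 2612 in egg-laying queens, against 1494, 2050 and 1815 in inhibited queens. Only recovery queen 3 among the laying queens was below inhibited queen 2 (log2 change 0.39, SE 0.14, adjusted p = 0.118). miR-71, which takes part in locust moulting together with miR-263, had a log2 change of 0.36 (SE 0.14, adjusted p = 0.142). In miR-71 the recovery queens, at 6406, 8001 and 10015, were above all inhibited queens, at 6161, 5742 and 5486, while 1 of the egg-laying queens, at 6762, 5978 and 7695, was not. The scarcer miR-965-3p had a log2 change of 0.65 (SE 0.26, adjusted p = 0.143), and in the other direction miR-2765-5p, with 2 to 18 counts in a library, one of −1.02 (SE 0.44, adjusted p = 0.191). Its counts in inhibited queens were 12, 18 and 10, and without these queens miR-2765-5p would not have met the count minimum. A fall was thereby favoured.

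miR-276 was the most abundant miRNA, and the laying groups differed from each other in it. In the locust miR-276 is known for making eggs hatch in step. It took 38.4, 36.5 and 41.8% of the counts in recovery queens and 29.0 to 31.6% in the 3 egg-laying queens, against 38.1, 36.2 and 41.7% in inhibited queens. Egg-laying queens were below all others, and recovery and inhibited queens overlapped. Counting error is small beside these differences, since the widest Wilson interval (95%) of any such share, and of the shares of the 10 most abundant miRNAs, spanned 0.501 points. It covers counting error only. Laying and inhibited queens differed by −4.12 points on average (exact permutation test, two-sided p = 0.298).

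In normalized CPM, miR-276 averaged 402879 ± 38625 in recovery queens, 279788 ± 23451 in egg-laying queens and 405763 ± 51050 in inhibited queens (SD, n = 3 each). Against inhibited queens the log2 change was −0.01 in recovery queens (SE 0.11, adjusted p = 0.973) and −0.54 in egg-laying queens (SE 0.11, adjusted p = 0.015). The call of egg-laying queens passed in 17 of 22 alternatives, with adjusted p up to 0.213. It was lost without egg-laying queen 1 (adjusted p = 0.0525) or inhibited queen 3 (adjusted p = 0.113). It was also lost in the fit of all 12 libraries, with a replicate block and with only the groups compared. Recovery minus egg-laying queens was 0.53 (SE 0.11, adjusted p = 0.0183), the single call among 91 miRNAs (1.10%) between the laying groups. It passed in 18 of 22 alternatives, and it did not pass without recovery queen 3 (0.46, adjusted p = 0.162) or without egg-laying queen 1 (0.57, adjusted p = 0.0613). The log2 change of laying minus caged queens, −0.27 (SE 0.10, adjusted p = 0.118), is thus an average of unlike groups, and it was −0.17 without inhibited queen 3 (adjusted p = 0.427).

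The counts of calls moved with the scaling. With library size as the only scaling, the median log2 change of all miRNAs moved by 0.10 for laying against caged queens, to 0.08, by 0.19 for egg-laying against inhibited queens, to 0.19, and by −0.17 for recovery against egg-laying queens, to −0.22. The calls of laying against caged queens were then 2 higher and 2 lower, in place of 0 higher and 2 lower. For egg-laying against inhibited queens they were 8 higher and 2 lower in place of 0 and 2, and for recovery against egg-laying queens 1 higher and 4 lower in place of 1 and 0. With TPM in limma the splits were 2 and 1, 8 and 2, and 1 and 3. With DESeq2, recovery against egg-laying queens gave 2 higher and 1 lower.

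**Figure D3:**
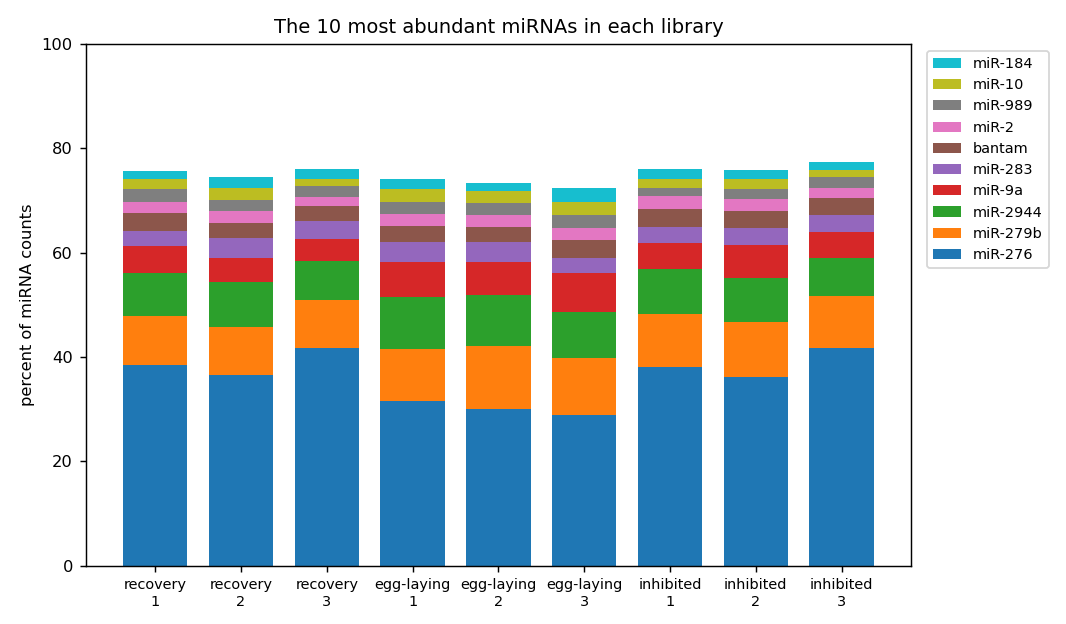
Percent of miRNA counts (y axis) taken by the 10 most abundant miRNAs in each of 9 libraries, recovery, egg-laying and inhibited queens from left to right. miR-276, at the base of each bar, takes 29.0 to 31.6% in egg-laying queens and at least 36.2% in the other libraries.

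Set against the same 3 inhibited queens, the laying groups gave 4 calls in recovery queens (4.40%) and 2 in egg-laying queens (2.20%). In recovery queens miR-3759 and miR-3049-5p were lower and miR-6000a-5p and miR-6000b higher. Since the last pair has the same reads, they are 3 distinct changes. In egg-laying queens miR-276 and miR-3759 were lower. A p under 0.05 without adjustment was found for 14 miRNAs in recovery queens (15.4%) and 18 in egg-laying queens (19.8%). The levels did not overlap for 18 miRNAs (19.8%) in recovery queens and 32 miRNAs (35.2%) in egg-laying queens. Levels of 3 against 3 libraries separate more easily than those of 6 against 3. These shares are therefore not comparable with that of laying against caged queens. Between recovery and egg-laying queens 13 miRNAs (14.3%) had an unadjusted p under 0.05, and 18 (19.8%) did not overlap.

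Some miRNAs outside the calls were lower in egg-laying queens and close to 0 change in recovery queens. miR-8, which acts in growth control in Drosophila, had log2 changes of −0.03 in recovery queens (adjusted p = 0.973) and −0.36 in egg-laying queens (adjusted p = 0.114). miR-275, which is needed for egg development after a blood meal in the mosquito Aedes aegypti, had 4026, 4179 and 4950 normalized CPM in recovery queens and 3576, 2825 and 3060 in egg-laying queens, against 4369, 3896 and 4342 in inhibited queens. The egg-laying queens were below all others. The difference of recovery minus egg-laying queens, 0.47 (adjusted p = 0.123), did not pass the threshold in edgeR and passed it in DESeq2 (0.50, adjusted p = 0.0474). It passed with none of the other scalings. With library size as the only scaling it was 0.31 (edgeR, adjusted p = 0.230) and with TPM in limma 0.32 (adjusted p = 0.235).

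**Figure D4:**
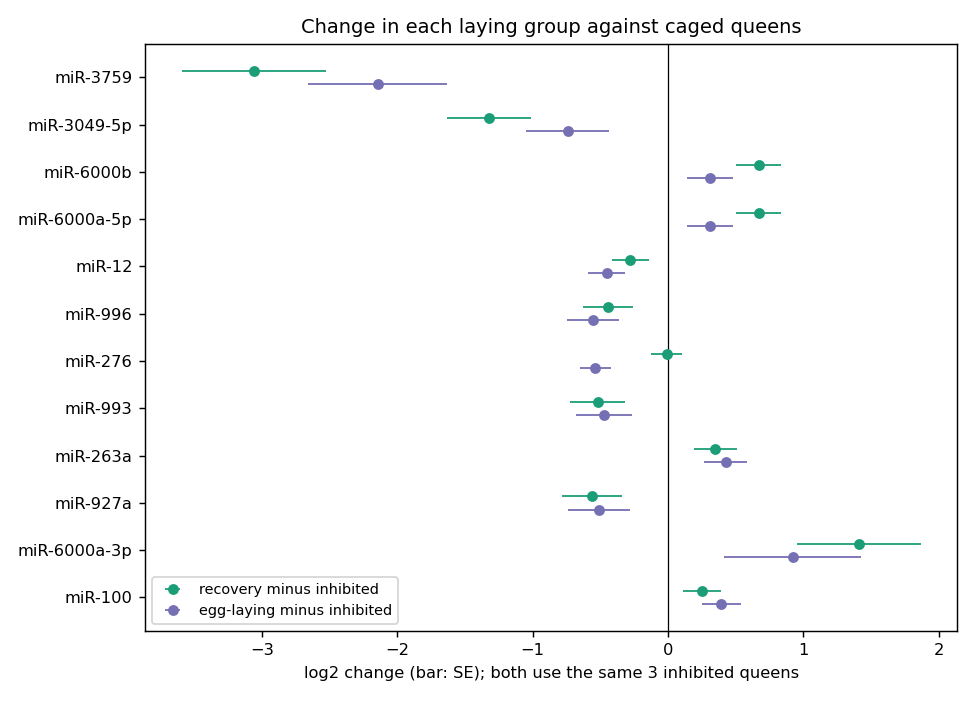
Log2 change with standard error (x axis) of recovery and egg-laying queens, each minus the same 3 inhibited queens, for the 12 miRNAs of lowest p between laying and caged queens. Recovery and egg-laying queens are at −0.01 and −0.54 for miR-276, at −3.06 and −2.15 for miR-3759, and at −1.32 and −0.74 for miR-3049-5p.

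The 10 most abundant miRNAs held 75.4 ± 0.87% of the counts in recovery queens and 73.3 ± 0.81% in egg-laying queens, against 76.5 ± 0.83% in inhibited queens (SD, n = 3 each). The difference of laying minus caged queens was −2.11 points (exact permutation test, two-sided p = 0.0714). This share includes miR-276, whose own share differed by −4.12 points, so the difference does not show a fall of the other members. The mean share of miR-276 was 38.9% in recovery queens and 30.2% in egg-laying queens, against 38.7% in inhibited queens. After miR-276 the order was miR-279b, miR-2944, miR-9a, miR-283, bantam, miR-2, miR-989, miR-10 and miR-184. Apart from miR-276 and miR-10 their log2 changes lay between −0.16, of the growth-promoting miRNA bantam (SE 0.10, adjusted p = 0.389), and 0.18, of miR-989 (SE 0.12, adjusted p = 0.389). miR-184, which in Drosophila is required for egg production, averaged 18758 ± 2796 normalized CPM in laying and 18696 ± 1472 in inhibited queens, with a log2 change of 0.01 (SE 0.13, adjusted p = 0.967). The third miRNA of the Drosophila ovary, miR-318, had a log2 change of −0.09 (SE 0.19, adjusted p = 0.832).

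Lists of miRNAs with a role linked to the ovary showed no calls between laying and caged queens, apart from the 22 tested members of the miRNAs with numbers described from bees, where miR-3759 was the single call. Over all 91 miRNAs 2 were called (2.20%), and 42 changes were above 0 and 49 below. Of the 22, 14 had a change above 0 and 8 below, or 13 and 8 with miR-6000a-5p and miR-6000b taken as 1, with a median of 0.12 beside −0.02 for all miRNAs. Of 9 miRNAs that the study lists as raised in activated ovaries, 4 had a change above 0 and 5 below (median −0.05, or 0.05 with library size as the only scaling). Of 7 listed as raised in inactive ovaries, 4 were above 0 and 3 below (median 0.04). In the miR-279 and miR-996 family 4 of 5 members were below 0, with a median of −0.26, and among 6 miRNAs of the ecdysteroid and juvenile hormone response 5 were above 0, with a median of 0.12. These 6 include the let-7 complex (let-7, miR-100 and miR-125), so this count is not separate from that of the complex. The remaining members were miR-8 at −0.20, miR-14 at 0.13 and miR-34 at 0.10. In recovery queens 5 of these 6 were above 0 (median 0.22), and in egg-laying queens 3 were above and 3 below. Of 7 miRNAs linked to vitellogenin, the yolk protein precursor, 3 were above 0 and 4 below (median −0.02). This count pools links of opposite sign. The study lists let-7, miR-1 and miR-275 as positively correlated with vitellogenin, and their changes were 0.04, −0.02 and −0.18. It lists miR-316, miR-31a, miR-92a and miR-3718a as negatively correlated, and their changes were −0.25, −0.40, 0.06 and 0.17. The muscle miRNAs had log2 changes of −0.02 for miR-1 (adjusted p = 0.913) and −0.41 for miR-133 (adjusted p = 0.434).

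The remaining lists were gene clusters and small families. In the miR-9 and miR-79 list, only miR-306, miR-79 and miR-9b lay within 10 kb of each other. In effect miR-79 and miR-9b hold the same reads, so they are not separate observations. The miR-12, miR-283 and miR-3477 cluster had 3 of 3 members below 0 (median −0.20), the miR-9 and miR-79 list 5 of 5 (median −0.07), and miR-275 and miR-305 2 of 2 (median −0.10). With library size as the only scaling, where the median of all miRNAs was 0.08, these were 2 of 3, 2 of 5 and 1 of 2, with medians of −0.10, 0.03 and 0.00015. With TMM factors without miR-276, where the median of all was 0.01, they were 2 of 3, 4 of 5 and 1 of 2, with medians of −0.16, −0.04 and −0.06. For miR-9 and miR-79 recovery queens had 5 of 5 members below 0 (median −0.22) and egg-laying queens 2 of 5 (median 0.01). For miR-275 and miR-305 recovery queens had 0 of 2 below (median 0.14) and egg-laying queens 2 of 2 (median −0.33). The let-7 complex and the miR-279 and miR-996 family kept their counts above and below 0 with library size as the only scaling, with medians of 0.42 and −0.16. The list of miR-277, miR-317 and miR-34, where only miR-277 and miR-34 lay within 10 kb of each other, had 1 member above 0 and 2 below (median −0.12). The miR-2, miR-13 and miR-71 cluster had 2 and 3 (median −0.12), the miR-92 family 2 and 0 (median 0.22), and the miRNAs of bantam and growth 2 and 2 (median −0.02).

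Of the 91 miRNAs, 89 matched a miRNA gene of the RefSeq annotation, and 36 of them lay within 10 kb of another, in 12 groups. In 7 groups all members lay on 1 side of 0 with the TMM factors, and in 4 with library size as the only scaling, 5 with TPM in limma and 5 with TMM factors without miR-276. The largest medians were those of the miR-6000 group, from 0.29 to 1.16, of miR-279a and miR-996, at −0.26 and −0.50, and of the let-7 complex, from 0.04 to 0.41. In the miR-6000 group the value of 1.16 is that of miR-6000a-3p, which met the count minimum through laying queens alone. The group of miR-2, miR-2b, miR-13b, miR-13a and miR-71 spread from −0.26, of miR-13a, to 0.36, of miR-71. miR-79 and miR-9b also overlap, and their counts differed by at most 3.23%, so that their changes of −0.21 and −0.20 are not separate observations.

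**Figure D5:**
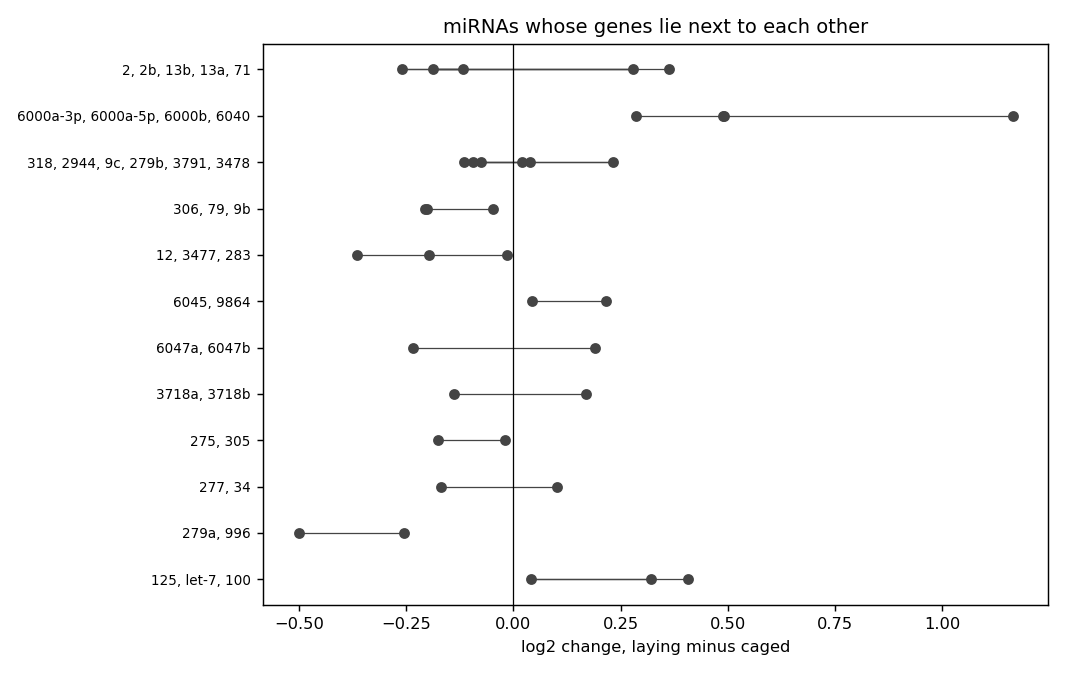
Log2 change of laying minus inhibited queens (x axis) of miRNAs whose genes lie within 10 kb of each other, 1 line per group of neighbours and 1 point per miRNA (names without the prefix miR). The miR-6000 group spans 0.29 to 1.16, and 7 of 12 groups lie on 1 side of 0 with the TMM factors shown, against 4 with library size as the only scaling.

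Of the 12 miRNAs predicted by the authors, 2 were tested. novel_60, located on the minus strand of linkage group 4 from 4810118 to 4810228 in the build of the deposited table (Amel_4.5), had 249, 264 and 318 normalized CPM in recovery queens and 299, 231 and 239 in egg-laying queens, against 179, 250 and 195 in inhibited queens. The groups overlapped, as inhibited queen 2 was above 2 egg-laying queens and recovery queen 1 (log2 change 0.36, SE 0.19, adjusted p = 0.306). novel_53, on the minus strand of linkage group 2 from 14937352 to 14937464, had a log2 change of −0.09 (SE 0.26, adjusted p = 0.865).

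The 87 miRNAs that were not compared had at most 18 counts in a library, and 12 of them had none in the 9 libraries. In the edgeR fit without a count filter the other 75 were tested, and none was called in any of the 4 comparisons. The lowest adjusted p among them was 0.101 for laying against caged queens, where 6 had an unadjusted p under 0.05. That number was 7 for egg-laying and 3 for recovery against inhibited queens, and 1 for recovery against egg-laying queens. Over all 166 miRNAs of that fit it was 29 for laying against caged queens. It was 28 for egg-laying and 20 for recovery against inhibited queens, and 21 for recovery against egg-laying queens. With so few counts a call was hard to reach, so the lack of calls says little about these 75 miRNAs.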

How the data were processed

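Total RNA of ovaries was extracted with Trizol, and small RNA libraries were sequenced as single-end reads. Per the study's methods, the authors mapped the reads to the Amel_4.5 genome with Bowtie, took known miRNAs from miRBase and predicted others. They deposited raw read counts per miRNA and, beside them, TPM values, each a count scaled to the library's total with no correction for length. How reads that fit several miRNAs were assigned is not given in the sources used here. The submitters' processing notes also name TopHat2 2.0.9, Bowtie2 2.0.6 and HTSeq 0.6.1, which were not assigned to a step. 6 rows of the table without a name were left out, the mRNA table was not used here, and the number of per-sample columns of unknown sample was 0.

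Counts of the 9 libraries were fitted with edgeR 4.0.16 (R 4.3.3), with TMM normalization, a mean per group and the quasi-likelihood test. The laying level was the mean of the recovery and egg-laying group means. The p-values are two-sided and were adjusted by the Benjamini-Hochberg method over 91 miRNAs, with a threshold of 0.05. Standard errors were taken from the log2 change and its F statistic. Single values were compared by exact permutation, with Python 3.11.15 and scipy 1.17.1. The fit was tested on simulated counts, where small changes were called less often than large ones.

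Named are the 12 miRNAs of lowest p between laying and caged queens, the 10 most abundant, the members of the lists and the calls between recovery and egg-laying queens. miR-965-3p, miR-2765-5p, novel_53 and novel_60 lie outside this rule and were chosen after their values were seen. The comparison, the lists and the tests were chosen with earlier results of these data known. Shared counts were searched for as pairs within 5%. Neighbours came from the RefSeq table of assembly Amel_HAv3.1, used for the order of genes only, and PCR oligonucleotides from the study's supplement.

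The alternatives were DESeq2 1.42.0, RLE factors in edgeR, scaling by library size with and without the 5 most abundant miRNAs, a filter of 100 counts or none, all 12 libraries, TPM with limma 3.58.1 on log2(TPM + 1), known miRNAs only, a replicate block, laying queens as 1 group, only the groups compared, and each library left out. TMM without miR-276, and 1 miRNA kept of each pair with the same counts, were added after seeing the data.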

Additional observations from a re-analysis of the deposited data

Results flagged for a closer look

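A sample far from the other laying queens was found in 5 of 24 miRNAs and values searched (Dixon's test on 6 libraries), where chance gives about 1 in 20. miR-3759 had 142 normalized CPM in egg-laying queen 2, against 10.4 to 36.7 in the other laying queens. miR-100 had 6003 in egg-laying queen 1, against 4429 to 4786 in the others. miR-279b had 115370 in egg-laying queen 2, against 91004 to 98463. Bantam had 36327 in recovery queen 1, against 29150 to 31005, and miR-989 had 26189 in the same queen, against 20990 to 21864. Without egg-laying queen 2 the log2 change of miR-3759, laying minus caged, was −3.13, further from 0 than the −2.60 with all queens.

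The effect in miR-276 differed between recovery and egg-laying queens. Its log2 change of recovery minus egg-laying queens was 0.53 (edgeR, adjusted p = 0.0183), with all 3 recovery queens above all 3 egg-laying queens.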

How the results depend on the processing

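Of the 12 miRNAs named for their p between laying and caged queens, 12 kept the direction of their change in all alternatives that tested them. Laying against caged queens gave 2 calls. It gave 1 with DESeq2, with RLE factors, with no count filter, in all 12 libraries, with known miRNAs only, with laying queens as 1 group and with TMM without miR-276, 4 with library size only, and 0 with at least 100 counts (14 at an unadjusted p under 0.05). The filter of 100 counts left out both called miRNAs, miR-3759 with at most 63 counts and miR-3049-5p with at most 52, so they were not tested there. Egg-laying against inhibited queens (2 calls) gave 10 with library size only and with TPM in limma, and 0 in all 12 libraries and with only the groups compared (13 and 25 at an unadjusted p under 0.05, edgeR). Recovery against inhibited queens (4 calls) gave 7 with no count filter and 2 with at least 100 counts, where miR-3759 and miR-3049-5p were again left out, and 2 in all 12 libraries. Recovery against egg-laying queens (1 call) gave 3 with DESeq2, 5 with library size only, 2 with no count filter, 4 with TPM in limma, and 0 in all 12 libraries (6 at an unadjusted p under 0.05). Apart from the calls that the filter of 100 counts left out, the cause was not tested. Leaving out 1 library at a time gave 1 to 2, 0 to 2, 1 to 4 and 0 to 5 calls, in the same order. The difference in library totals ranged from 21062 to 81403 counts, that in the share of miR-276 from −5.57 to −2.62 points, and that in the share of the 10 most abundant miRNAs from −2.46, without recovery queen 3 (exact permutation p = 0.0357), to −1.63 points. With all libraries the exact permutation p of this last difference was 0.0714, and the p of the other runs is not given here. The labels number the queens of each group alike, but the numbers do not pair them. The deviations of same-numbered queens correlated by −0.13 to 0.16, and 4 of 9 libraries correlated best with their own number. With a replicate block the calls were 1 for laying against caged queens, 0 for egg-laying against inhibited queens, 4 for recovery against inhibited queens and 0 for recovery against egg-laying queens, with 18 and 15 miRNAs at an unadjusted p under 0.05 where none was called. Depth limits the 29 miRNAs with fewer than 100 counts on average most.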

Other observations

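The 3 virgin libraries, which belong to no comparison here, had other levels of several of these miRNAs, given as the authors' TPM and with no test. miR-3759 was at 1.67, 1.32 and 2.43 TPM in virgin queens (4, 2 and 6 counts), below the 6 laying queens at 9.86 to 148 TPM and the inhibited queens at 148 to 226 TPM. miR-3049-5p was at 499, 417 and 504 TPM in virgin queens, above the laying queens at 46.0 to 117 TPM and the inhibited queens at 102 to 186 TPM. miR-6000a-5p was at 75.9, 185 and 72.0 TPM in virgin queens, below the laying queens at 520 to 749 TPM and the inhibited queens at 380 to 459 TPM. miR-6000a-3p was at 10.4, 9.27 and 10.5 TPM in virgin queens and miR-263a at 671, 542 and 655 TPM, both below all mated queens. Library totals of virgin queens were 2396373, 1510420 and 2473711 counts, several times those of the mated queens.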
